A study of Mus musculus with 11 samples.

Results

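The 10 cardiac lineage transcription factors Gata4, Gata6, Nkx2-5, Mef2a, Mef2c, Mef2d, Tbx5, Tbx20, Hand2 and Srf were examined in mouse ventricular myocardium. They were taken by gene symbol from the deposited count table, in which each symbol matched 1 of 46517 gene rows. The rule names them by symbol only, but the members and the gene lists below were chosen with earlier results of these data known. Counts of called genes beside the share over all genes therefore only describe these genes. RNA was sequenced in bulk from 11 mice in 4 groups. Mice labelled KO carried Tnnt2-Cre with Lmnb2Flox/Flox, so that the Cre recombinase, driven by the promoter of cardiac troponin T, should remove Lmnb2 from cardiomyocytes and leave the gene intact in the other cells of the tissue. Lmnb2 encodes lamin B2 of the nuclear lamina. Controls, called WT, carried Tnnt2-Cre. The genotype label of 1 sham control (WT sham 2) reads WT, where those of the other controls read Lmnb2 WT. It was read as the same genotype, and on that reading the Cre was shared by all groups. Mice aged 10 to 12 weeks had either transverse aortic constriction (TAC), a tie around the aortic arch that raises the pressure against which the left ventricle pumps, or a sham operation. Sham was done in 2 WT and 3 KO mice, and TAC in 3 mice of each genotype. How long after surgery the tissue was collected is not given in the labels.

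The GATA, NKX2, T-box, HAND and MEF2 proteins and the serum response factor SRF bind short DNA sequences in the promoters and enhancers of cardiac genes, often side by side and in direct contact with each other. They set up the cardiomyocyte programme in the embryo and remain active in the adult ventricle, where GATA4, MEF2 and SRF take part in the transcription of natriuretic peptide and contractile protein genes under pressure overload. MEF2 proteins are held in check by class IIa histone deacetylases, which signalling kinases drive out of the nucleus.

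Several of the factors are known to read sequences in each other's promoters or in their own, so the promoter windows of the members were searched for their motifs. Windows ran from 250 bases before to 50 bases after a RefSeq transcription start (build GRCm38.p6), and 7 of the 10 members had at least 1 window that was searched. Motifs were searched on both strands: for GATA factors AGATAA or AGATAG or TGATAA or TGATAG, for NKX2-5 TNAAGTG, for T-box factors GGTGTGA, and the MEF2 motif and the CArG box (bound by SRF) by their known consensus. Of 32851 windows of the same length, 29.8% held a GATA match, 11.5% an NKX match, 3.98% a T-box match, 3.19% a MEF2 match and 1.63% a CArG box. Among the members, Mef2a held a MEF2 match, Srf a pair of CArG boxes and Hand2 a pair of GATA matches, and the windows of Nkx2-5, Mef2c, Mef2d and Tbx20 held none of the 5 motifs. Among 7 targets and cofactors searched in the same way (Nppa, Nppb, Acta1, Cnn1, Fhl1, Ankrd1 and Tnni3), 4 held a GATA match, 3 a T-box match, 2 a CArG box, 1 an NKX match and 0 a MEF2 match, and Cnn1 held none. The sequences below are those of the 3 members with a match, and of 2 of these targets, Nppa and Acta1, shown as examples of genes with matches. They run 5' to 3' on the strand of the gene, from 250 bases before the start to 10 bases after it, with the matches in capitals.
Mef2a (chr7:67372849-67373108, minus strand): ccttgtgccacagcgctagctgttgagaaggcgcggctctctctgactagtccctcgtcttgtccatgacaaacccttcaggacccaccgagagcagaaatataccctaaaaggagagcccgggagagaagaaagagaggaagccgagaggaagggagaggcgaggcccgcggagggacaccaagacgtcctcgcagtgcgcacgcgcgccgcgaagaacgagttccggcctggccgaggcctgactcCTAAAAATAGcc
Srf (chr17:46556153-46556412, minus strand): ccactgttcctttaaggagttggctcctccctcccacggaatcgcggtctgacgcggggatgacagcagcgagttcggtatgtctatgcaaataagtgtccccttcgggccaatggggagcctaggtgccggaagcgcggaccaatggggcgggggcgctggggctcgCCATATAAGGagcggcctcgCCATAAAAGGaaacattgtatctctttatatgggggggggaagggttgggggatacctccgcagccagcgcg
Hand2 (chr8:57320733-57320992, plus strand): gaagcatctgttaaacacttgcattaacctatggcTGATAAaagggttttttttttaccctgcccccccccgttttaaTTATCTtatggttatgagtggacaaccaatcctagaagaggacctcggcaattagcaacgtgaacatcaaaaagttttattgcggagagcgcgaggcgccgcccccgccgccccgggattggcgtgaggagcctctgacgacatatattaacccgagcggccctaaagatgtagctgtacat
Nppa (chr4:148000472-148000731, plus strand): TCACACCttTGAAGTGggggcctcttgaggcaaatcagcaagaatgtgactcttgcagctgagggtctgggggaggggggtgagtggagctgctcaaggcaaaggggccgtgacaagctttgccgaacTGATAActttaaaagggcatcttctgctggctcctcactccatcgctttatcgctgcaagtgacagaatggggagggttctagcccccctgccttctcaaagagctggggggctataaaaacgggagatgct
Acta1 (chr8:123894766-123895025, minus strand): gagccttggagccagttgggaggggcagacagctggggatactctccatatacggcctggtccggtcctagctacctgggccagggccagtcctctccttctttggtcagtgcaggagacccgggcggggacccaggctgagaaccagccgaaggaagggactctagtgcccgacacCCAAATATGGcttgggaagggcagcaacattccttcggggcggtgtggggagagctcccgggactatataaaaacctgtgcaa

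In Mef2a the MEF2 match CTAAAAATAG began 2 bases before the start and ran across it. In Srf the CArG boxes CCATATAAGG and CCATAAAAGG began 82 and 62 bases before the start, and that of Acta1, CCAAATATGG, 73 bases before it. The GATA matches of Hand2 began 215 and 172 bases before the start. In Nppa a T-box match stood 250 bases, an NKX match 241 bases and a GATA match 122 bases before the start. A match describes letters in these windows only, and binding was not measured.

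A library held between 14770383 and 17333227 counts, and all 10 members passed the filter on low counts with 14619 genes in all. Lmnb2, the gene that was to be deleted, had 4.44 and 3.86 CPM (the usual per-library count scale, adjusted by the TMM method) in the WT sham libraries and 0.648, 1.81 and 2.43 in those of KO sham. After TAC it measured 2.86, 2.16 and 6.69 in WT and 9.72, 3.23 and 4.46 in KO, so the libraries labelled KO were not lower there and "KO" below means libraries so labelled. Messenger RNAs of ribosomal proteins took 0.651% to 1.72% of counts in sham and 0.870% to 6.73% in TAC, and were lowest after TAC in WT TAC 3 (1.32%) and KO TAC 1 (0.870%). Mitochondrially encoded genes took 32.8% to 49.4% in sham and 13.2% to 35.9% in TAC. Cardiomyocyte markers were abundant in every library of this ventricular tissue. Of 4 atrial markers, Myl7 and Sln had at most 10 and 23 counts in any library, while Myl4 had 0.905 to 3.89 CPM in sham and 2.00 to 14.8 in TAC and rose by 1.99 with TAC over both genotypes (edgeR adjusted p = 0.0252). The fourth, Nppa, also rose and is given with the targets.

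Per kilobase of exon, Gata4 and Srf were the most abundant of the 10 and Mef2c and Tbx5 the least. Gata4, a zinc finger factor that acts with most of the others, had a median of 21.5 RPKM (TMM-scaled CPM per kilobase of exons) over the 11 libraries. Srf, which binds CArG boxes in contractile and immediate early genes, had 20.1. Mef2d had 14.2, Nkx2-5, the homeodomain factor of the early heart, 11.6, and Hand2, a basic helix-loop-helix factor of the developing ventricles and of stromal cells, 10.7. Mef2a had 9.94, Gata6, a close relative of Gata4, 6.53, Tbx20, a T-box factor that can act as a repressor, 5.31, Tbx5, a T-box activator mutated in Holt-Oram syndrome, 3.08, and Mef2c 2.95. The genes were also ranked by mean within each group, which in WT sham put Mef2a and then Nkx2-5 between Mef2d and Hand2. In that WT sham ranking the ranges of neighbours were apart between Srf (21.1 ± 1.20 RPKM, mean ± SD, n = 2) and Mef2d (15.5 ± 1.90). They were also apart between Hand2 (10.8 ± 1.08) and Gata6 (7.04 ± 0.73), and the other neighbours overlapped. In the ranking of WT TAC all neighbours overlapped. The lowest rank passed from Mef2c in sham to Tbx5 in TAC in both genotypes, although the ranges of these 2 genes overlapped in every group.

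**Figure D1:**
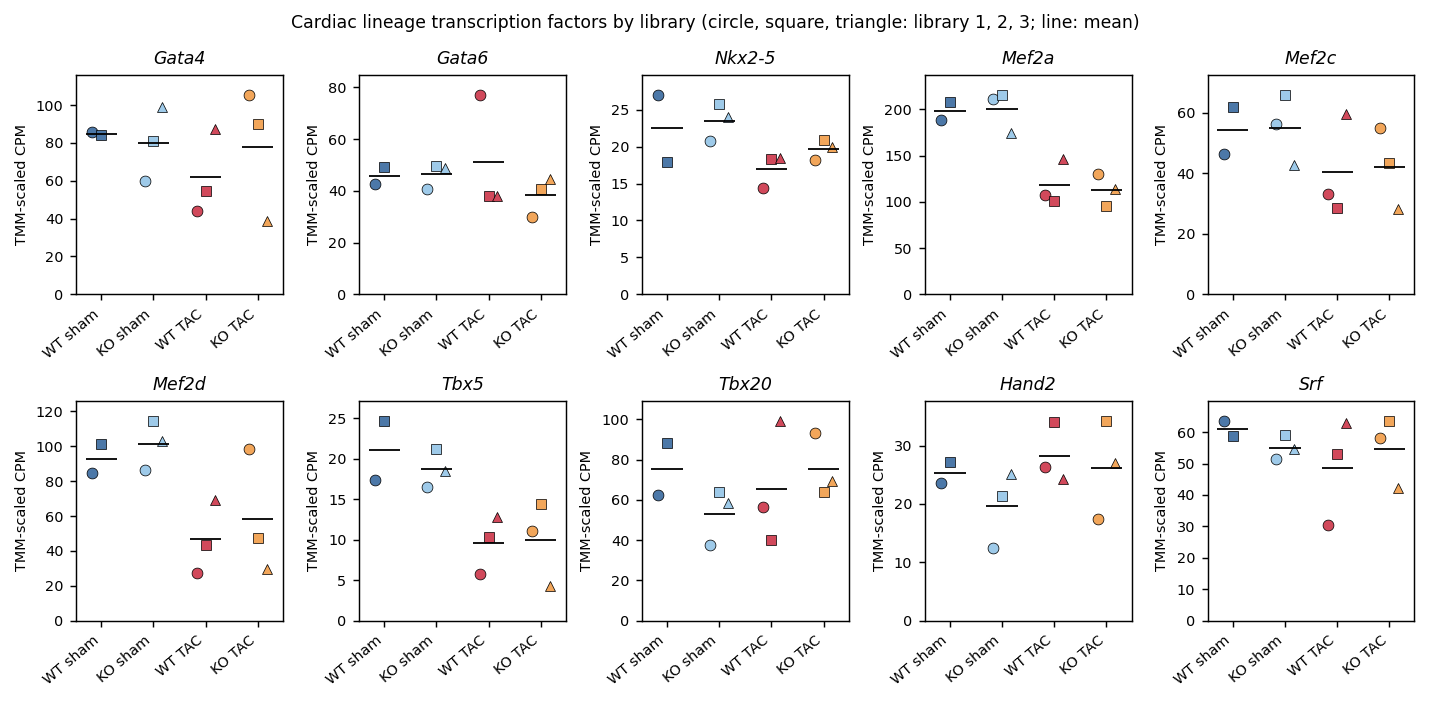
Level of each factor in every library (y axis: TMM-scaled CPM, from 0; x axis: group of 2 or 3 mice; circle, square and triangle: library 1, 2 and 3; line: group mean). All TAC libraries of Mef2a and Tbx5 sit below all sham libraries, Mef2d does so in WT, and the other 7 factors overlap.

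The first question was how pressure overload changed the factors. TAC was compared with sham over both genotypes with genotype as a term in the fit, which sets 6 TAC against 5 sham libraries. Of the 10 members, 2 fell, Mef2a and Tbx5, and none rose (edgeR quasi-likelihood test, Benjamini-Hochberg adjusted p under 0.05 over all genes tested). Of all genes tested 19.5% passed in this comparison, 8.96% as lower and 10.6% as higher, and the 2 lower calls in 10 stand against that background. The median change of the 10 members was -0.27 on the log2 scale and that of all genes 0.05. With 10 genes such counts describe the members and do not set them apart from other genes.

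Mef2a (chr7:67231163-67372858, minus strand, GRCm38), the MEF2 member with the highest counts here, stood at 189 and 208 CPM in the WT sham hearts and at 211, 216 and 174 in the KO sham hearts. After TAC it measured 107, 100.6 and 146 in WT and 130, 96.0 and 113 in KO. All 6 TAC libraries lay below all 5 sham libraries. The fall was -0.79 ± 0.17 (log2 change ± SE, 95% interval -1.17 to -0.42), or 0.578 of the sham level, with an edgeR adjusted p of 0.00696. Leaving out any 1 library kept the call, with changes from -0.87 to -0.72. Mef2a shares 302 exon bases, 2.06% of its exons, with Lysmd4 on the other strand, and the strand setting of the counting is not given in the sources used here, so reads there cannot be told apart. Lysmd4 itself fell by 0.83 in the same comparison (edgeR adjusted p = 0.0142).

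Tbx5 (chr5:119832668-119885219, plus strand, GRCm38), the activator of the T-box pair, had 17.4 and 24.7 CPM in the 2 WT sham hearts and 16.5, 21.2 and 18.5 in the 3 KO sham hearts. After TAC it measured 5.72, 10.3 and 12.9 in WT and 11.1, 14.4 and 4.34 in KO. Again no TAC library reached the lowest sham library, and non-overlap of this kind in the lower direction was seen in 7.01% of all genes tested. The fall was -1.01 ± 0.29 (95% interval -1.63 to -0.38), or 0.497 of the sham level, with an edgeR adjusted p of 0.0267. This call rests on few libraries: leaving out WT sham 1 gave an adjusted p of 0.0552, WT sham 2 one of 0.0925, KO sham 2 one of 0.0601, KO sham 3 one of 0.0503 and WT TAC 2 one of 0.0538, while the change stayed between -1.18 and -0.83. Tbx5 did not pass either once the fit took the share of ribosomal protein counts as a term (-0.67, edgeR adjusted p = 0.114).

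Mef2d (chr3:88142372-88172086, plus strand, GRCm38), the MEF2 member best known for driving stress-dependent remodelling in the adult heart, came next with -0.88 ± 0.30 and missed the threshold (edgeR adjusted p = 0.0551). Sham levels were 84.9 and 101 CPM with the WT and 86.1, 114.6 and 103 with the KO label. TAC levels were 27.4, 43.6 and 69.4 CPM with the WT and 98.4, 47.4 and 29.5 with the KO label. KO TAC 1 alone among the TAC libraries lay within the sham range, and WT TAC 3 was the next highest. These are the 2 TAC libraries with the lowest ribosomal protein shares. Without KO TAC 1 the change of Mef2d was -1.21 (edgeR adjusted p = 0.00514), without WT TAC 3 it was -1.01 (0.0362), and without both it was -1.41 (0.000242). Since both libraries are the highest of their group in Mef2d, leaving them out had to enlarge the difference, and these values do not support a call. With the ribosomal protein share as a term it was -0.41 (0.124). DESeq2 (adjusted p = 0.0298) and limma-voom (0.0324) also called Mef2d lower on all 11 libraries. Mef2d shares 531 bases, 8.87% of its exons, with 1700113A16Rik on the other strand, so its reads there cannot be told apart either.

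Mef2c, the MEF2 member needed for looping and growth of the embryonic heart, which endothelial cells also express, had sham levels of 46.4 and 62.1 CPM (WT) and of 56.5, 66.1 and 42.6 CPM (KO). Its TAC levels were 33.2, 28.4 and 59.7 CPM (WT) and 55.1, 43.5 and 28.1 CPM (KO). The lower TAC values overlapped the sham range in WT TAC 3, KO TAC 1 and KO TAC 2, and the change of -0.40 ± 0.24 did not pass (edgeR adjusted p = 0.265). Without WT TAC 3 and KO TAC 1, the libraries with the highest Mef2c of their groups, it was -0.73 (edgeR adjusted p = 0.0139), a shift that their removal had to give.

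The other 6 factors did not pass, and their 95% intervals give the range of change that these libraries allow. For Gata4 the change was -0.22 ± 0.27 (interval -0.80 to 0.36) and for Gata6 -0.09 ± 0.22 (-0.57 to 0.40). Nkx2-5 gave -0.32 ± 0.17 (-0.68 to 0.04), with 27.1 and 17.9 CPM (WT) and 20.7, 25.8 and 23.95 CPM (KO) after sham, and 14.3, 18.3 and 18.4 CPM (WT) and 18.2, 21.0 and 19.95 CPM (KO) after TAC. These Nkx2-5 values overlapped in both genotypes. Srf gave -0.15 ± 0.20 (-0.59 to 0.28). Tbx20 gave 0.18 ± 0.26 (-0.39 to 0.75) and Hand2 0.30 ± 0.23 (-0.19 to 0.79), the only positive estimates. Tbx20 passed as higher with the ribosomal protein share as a term (0.63, edgeR adjusted p = 0.0288), and without WT TAC 3 and KO TAC 1 it stood at -0.13. Those libraries have the highest Tbx20 of their groups, so their removal had to lower the estimate. A fall as large as the estimate for Tbx5 lies outside the interval of each of these 6 genes.

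**Figure D2:**
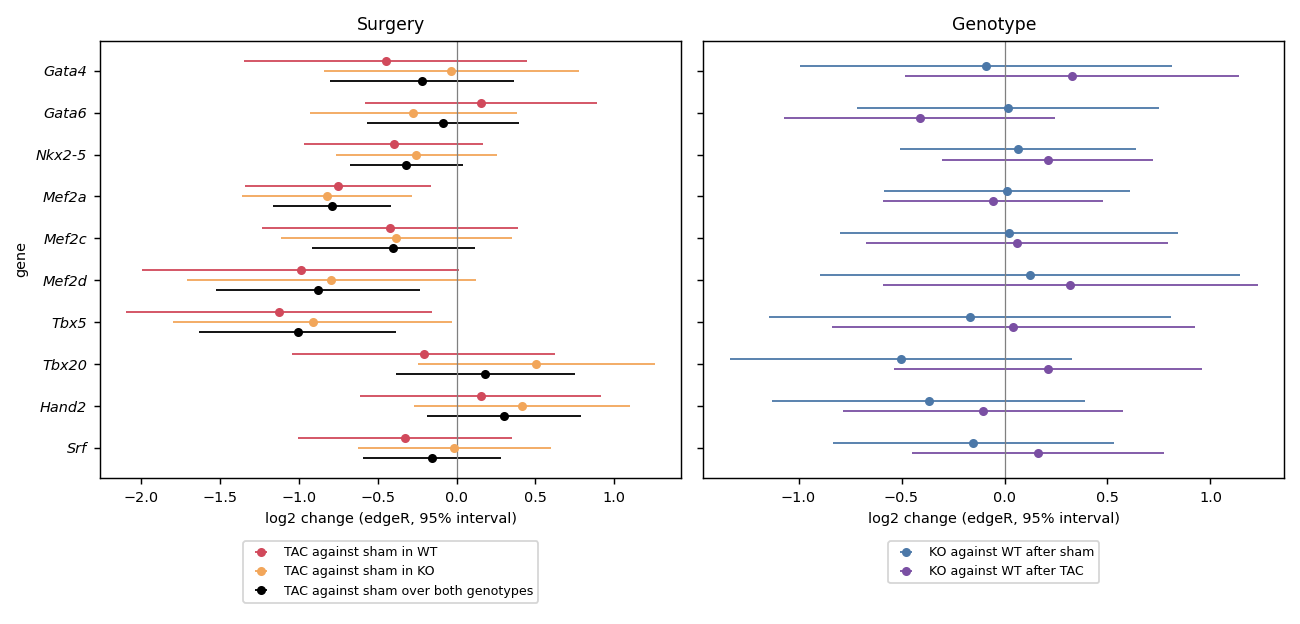
Log2 change of each factor with its 95% interval (x axis; edgeR quasi-likelihood fit), for surgery on the left and genotype on the right. The intervals of Mef2a and Tbx5 lie below 0 in all 3 surgery comparisons, that of Mef2d only over both genotypes, and every genotype interval spans 0.

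Library scaling bears on these directions. Scaled by library totals, the median change of all genes moved from 0.05 to 0.45, the share of called genes that were higher from 54.1% to 90.2% (70.9% with totals that leave out mitochondrially encoded genes), and neither Mef2a (-0.37, edgeR adjusted p = 0.191) nor Tbx5 (-0.60, 0.165) passed. Relative to that median Mef2a stood at -0.82 and Tbx5 at -1.04, against -0.84 and -1.05 with TMM. Under library totals the estimates for Gata4, Gata6, Nkx2-5, Mef2c and Srf were positive, so no direction is given for these 5. The other lists described below split there into 2 higher and 0 lower calls for lineage factors, 4 and 0 for cofactors and 14 and 3 for targets, and without mitochondrially encoded genes in the totals into 0 and 3, 4 and 1, and 12 and 5.

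Within each genotype no member passed. In WT, edgeR called 0 of 10 against 6.92% of all genes tested, with 2 members, Mef2a and Tbx5, at an unadjusted p under 0.05 against 25.8% of all genes, and DESeq2 called 1 (Mef2a) and limma-voom 0. In KO, edgeR called 0 of 10 against 4.70%, with the same 2 genes at an unadjusted p under 0.05 against 19.3%, and DESeq2 again called Mef2a and limma-voom 0. The estimates, side by side, were for Mef2a -0.75 ± 0.27 in WT and -0.82 ± 0.25 in KO (edgeR adjusted p = 0.109 and 0.0799), for Tbx5 -1.13 ± 0.45 and -0.91 ± 0.41 (0.140 and 0.243), and for Mef2d -0.99 ± 0.46 and -0.79 ± 0.42 (0.1995 and 0.339). Mef2a, Mef2d and Tbx5 did not overlap between WT TAC and WT sham, where 21.2% of all genes were lower without overlap. Mef2a and Tbx5 did not overlap between KO TAC and KO sham, where 12.8% were. In WT, edgeR called Mef2a without WT TAC 3 (adjusted p = 0.0413). In KO it called Mef2d without KO TAC 1 (0.0467). Each of these libraries has the highest level of that gene in its TAC group. Leaving it out had to enlarge the fall, and these values do not support a call.

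The second question was whether the factors differed between libraries labelled KO and WT. Lmnb2 itself was not lower in the KO libraries after TAC, so the comparison is one of labels. Between KO and WT no member passed after sham or after TAC, and 0% of all genes tested passed in either comparison with edgeR. Over all genes DESeq2 called 3 after sham and 6 after TAC, and edgeR without the filter on low counts 20 and 206. The count at an unadjusted p under 0.05 was 0 of 10 members in both, against 1.27% of all genes after sham and 6.36% after TAC, and DESeq2 and limma-voom called 0 members. No member was free of overlap between the genotypes, against 15.3% of all genes after sham and 7.74% after TAC. The largest estimate after sham was that of Tbx20, which measured 62.4 and 88.4 CPM in WT and 37.4, 63.8 and 58.2 in KO, a difference of -0.50 ± 0.38 (95% interval -1.33 to 0.33, edgeR adjusted p = 1). After TAC it was that of Gata6, at 77.3, 37.9 and 38.0 CPM in WT and 29.8, 40.6 and 44.7 in KO, a difference of -0.41 ± 0.30 (-1.07 to 0.24, edgeR adjusted p = 0.754). For Mef2a the intervals ran from -0.58 to 0.61 after sham and from -0.59 to 0.48 after TAC, so a change of the size seen with TAC lies outside both.

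The interaction, which asks whether the response to TAC differed between genotypes, called 0 of 10 members and 0% of all genes with edgeR, with 0 members at an unadjusted p under 0.05 against 2.97% of all genes, and DESeq2 and limma-voom called 0 members. Over all genes DESeq2 called 2, and edgeR without the filter 80. The estimate furthest from 0 was that of Tbx20, 0.71 ± 0.52 (95% interval -0.41 to 1.83, edgeR adjusted p = 0.992), whose TAC libraries held 56.3, 40.1 and 99.2 CPM in WT and 93.3, 63.7 and 69.5 in KO. For Mef2a it was -0.07 ± 0.37 (-0.87 to 0.73). That interval includes differences of the size of the response of Mef2a to TAC.

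Spread between mice of 1 group differed among the factors. For Gata4 the sham hearts gave 85.7 and 84.1 CPM (WT) and 59.6, 80.9 and 98.9 CPM (KO). The TAC hearts gave 44.2, 54.6 and 87.5 CPM (WT) and 105.5, 89.9 and 38.7 CPM (KO). The KO TAC group thus holds both the highest and the lowest Gata4 value of all 11 libraries. Gata6 ran from 37.9 to 49.6 CPM in 9 libraries, with WT TAC 1 above at 77.3 and KO TAC 1 below at 29.8. Those 2 libraries also had the highest and the next to lowest ribosomal protein share, 6.73% and 0.870%. Gata6 shares 93 exon bases with 1010001N08Rik on the other strand. Srf stood at 63.6 and 58.7 CPM (WT) and 51.4, 59.1 and 54.6 CPM (KO) after sham. It stood at 30.4, 53.0 and 62.8 CPM (WT) and 58.0, 63.4 and 42.1 CPM (KO) after TAC, with WT TAC 1 the lowest of all.

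Hand2 had 23.6 and 27.1 CPM (WT) and 12.4, 21.3 and 25.1 CPM (KO) after sham. After TAC it had 26.3, 34.0 and 24.2 CPM (WT) and 17.3, 34.2 and 27.1 CPM (KO), and the groups overlapped. Its neighbour Hand2os1, a long noncoding RNA that starts upstream on the other strand, shares 461 bases, 19.6% of the Hand2 exons. Hand2os1 had 88.9 and 48.6 CPM (WT) and 122, 40.9 and 125 CPM (KO) after sham, and 396, 215 and 57.3 CPM (WT) and 18.9, 106 and 125 CPM (KO) after TAC. Its highest value was in WT TAC 1, the library with the highest ribosomal protein share, and its lowest in KO TAC 1. Since reads over the shared bases cannot be assigned to a strand from the sources used here, the level of Hand2 is uncertain.

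**Figure D3:**
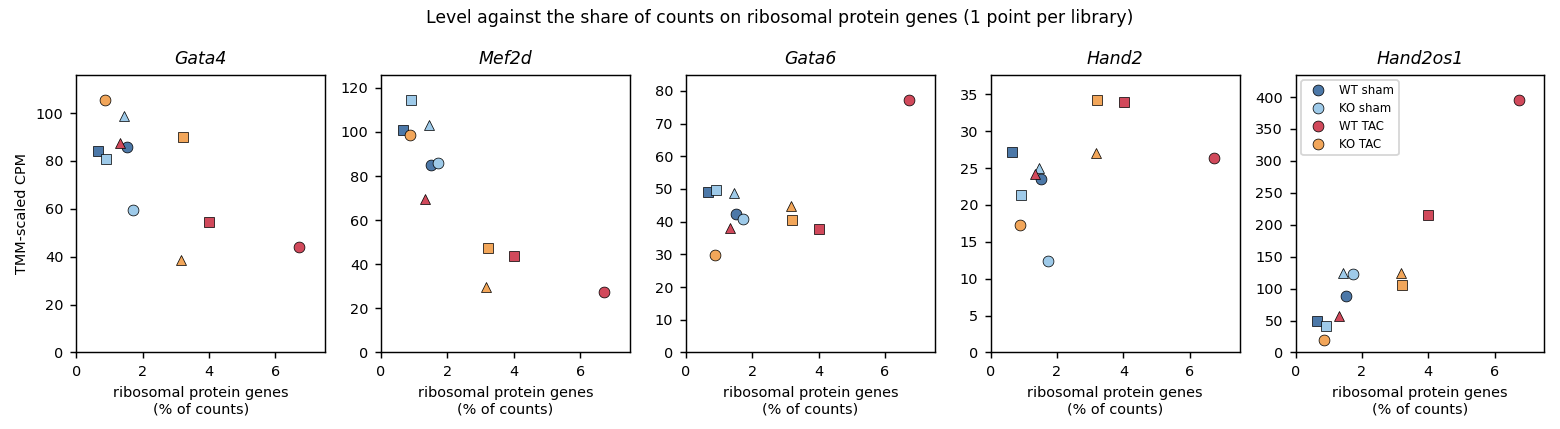
TMM-scaled CPM of 4 factors and of Hand2os1 (y axes, from 0) against the share of counts on ribosomal protein genes in percent (x axis), 1 point per library. WT TAC 1, at 6.73%, has the highest Gata6 and Hand2os1 and the lowest Mef2d, and KO TAC 1, at 0.870%, has the highest Gata4 and the lowest Gata6 and Hand2os1.

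Ratios between relatives within a library do not depend on library scaling, and 1 pair separated the surgeries. Tbx5 per kilobase was 0.72 and 0.72 of Tbx20 in WT sham and 1.13, 0.85 and 0.81 in KO sham. After TAC the ratio was 0.26, 0.66 and 0.33 in WT and 0.31, 0.58 and 0.16 in KO. All 6 TAC libraries lay below all 5 sham libraries, with medians of 0.319 and 0.814. The ratio joins a gene that fell with one that did not pass. The TAC levels of Tbx5 alone all lay below its sham levels, so the ratio is not a result apart from that fall. No test was made of it, the pairs were set by gene family, and how many other gene pairs separate the surgeries was not counted.

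The other ratios overlapped between TAC and sham. Gata4 per kilobase was 2.44 to 3.37 times Gata6 in sham and 0.954 to 5.91 times in TAC, a wider range around medians of 2.85 and 3.05. Mef2a was 3.50 to 4.37 times Mef2c in sham and 2.36 to 4.33 times in TAC. Within the 3 MEF2 genes together, Mef2a took 37.2% to 44.4% per kilobase in sham and 30.8% to 53.5% in TAC, and Mef2d 44.5% to 54.2% and 32.8% to 57.0%. Mef2c took the smallest share in every library, 8.53% to 11.28% in sham and 11.34% to 16.1% in TAC, ranges that nearly touch without overlapping. How often shares within other gene families separate in this way was not counted.

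**Figure D4:**
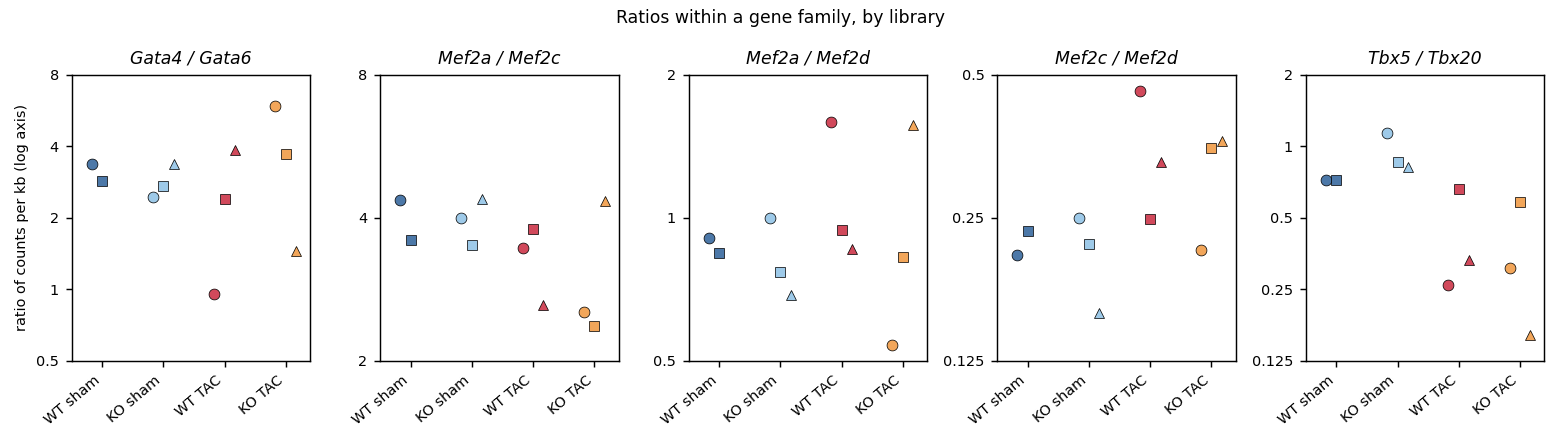
Ratio of 2 relatives per kilobase of exon (y axis, log scale; x axis: group) in each library, shown by circle, square and triangle for library 1, 2 and 3. Tbx5 over Tbx20 is 0.72 to 1.13 in sham and 0.16 to 0.66 in TAC, and the other 4 ratios overlap.

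Marker levels of several cell types moved with surgery, and in bulk samples fewer cells of a type and less RNA per cell cannot be told apart. The summed CPM of 11 cardiomyocyte markers was 56844 to 78896 in sham and 43422 to 60541 in TAC. With genotype as a term 0 of them rose and 3 fell, with a median change of -0.24, where Mef2a changed by -0.79 and Tbx5 by -1.01. The 3 were Tnni3, Pln and Ryr2, and the falls of Tnni3 and Pln, given with the targets, were larger than those of Mef2a and Tbx5. Of all genes tested 10.6% were higher and 8.96% lower. The 9 fibroblast markers summed to 1339 to 1872 CPM in sham and 2734 to 6241 in TAC, with 4 higher and 1 lower. The 6 markers of activated fibroblasts summed to 74.8 to 181 CPM in sham and 1077 to 3182 in TAC. The 7 macrophage markers, all higher, summed to 101 to 132 CPM in sham and 245 to 671 in TAC, and endothelial markers, none of 9 called, to 984 to 2086 and 1348 to 2441. Cthrc1, which defines activated fibroblasts, was at 0 in all 5 sham libraries, and no other marker of these 5 lists was at 0. The part of these shifts in the lower Mef2a and Tbx5 was not tested.

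Other transcription factors of the cardiac lineage, 27 in a list that holds no member, were measured beside the 10. Of these, 19 passed the filter on low counts and were tested. With genotype as a term 0 rose and 3 fell, with a median change of -0.29, where 10.6% of all genes tested were higher and 8.96% lower. Meis2, a homeodomain factor, fell by 1.08 ± 0.21 (edgeR adjusted p = 0.00360), from 17.3 to 31.8 CPM in sham to 8.16 to 15.5 in TAC, with no overlap. Hopx, a homeodomain protein without DNA binding that restrains SRF, fell by 1.04 ± 0.26 (0.0136), and Irx1, an Iroquois factor, by 1.48 ± 0.37 (0.0140). Meis2 kept its call as each library was left out in turn, and Hopx and Irx1 were not called without WT sham 1. The list gave 1 lower call, Meis2, in WT and 0 in KO with edgeR, where 3.04% and 1.37% of all genes were lower. In KO 5 of the list had an unadjusted p under 0.05, against 19.3% of all genes, and DESeq2 called 3 and limma-voom 0. Over both genotypes it gave 1 lower call without WT sham 1 and 6 without WT TAC 3 or without KO TAC 1. Without WT TAC 3 and KO TAC 1 together it gave 8. In these libraries Meis2 was highest and Hopx lowest of their TAC groups. Removing both had to enlarge the fall of Meis2 and shrink that of Hopx, and the larger count does not support the list.

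Of the cofactors and regulators of the members, 34 were tested, with 2 higher, 6 lower and a median change of -0.17. Of all genes tested 10.6% were higher and 8.96% lower. Ankrd1, a stress-induced nuclear and sarcomeric protein of cardiomyocytes, rose by 2.52 ± 0.32 (edgeR adjusted p = 0.000258), from 499.8 to 830.4 CPM in sham to 2159 to 6593 in TAC. Vgll3, a cofactor of TEAD proteins, rose by 1.58 ± 0.44 (0.0231). Mapk14, the p38 kinase that phosphorylates MEF2 proteins, fell by 1.04 ± 0.21 (0.00479), and Hdac5 and Hdac4, class IIa deacetylases that repress MEF2, fell by 0.72 ± 0.18 (0.0134) and 1.14 ± 0.32 (0.0246). Ncoa2, a coactivator, fell by 0.89 ± 0.25 (0.0238). Another deacetylase, Hdac9, was also called lower, and kept its call in 10 of 21 other settings. Hdac7 was not called, with 13.12 to 19.96 CPM in sham and 11.04 to 38.25 in TAC. The lower calls thus do not extend to every deacetylase measured here. Leaving out 1 library at a time gave 1 to 4 higher and 1 to 6 lower calls, with the most without KO TAC 1 and the fewest without WT sham 1. Without WT TAC 3 and KO TAC 1 together there were 4 and 11. Mapk14, Hdac4, Hdac5 and Ncoa2 were highest of their TAC groups in these libraries, so removing both had to enlarge those falls. The larger counts do not support the list. Hdac4 and Ncoa2 lost their calls without either WT sham library, KO sham 2, WT TAC 2, KO TAC 2 or KO TAC 3, Hdac5 without WT sham 1, and Vgll3 without either WT sham library or KO sham 2.

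Of the genes known from textbook work as targets of the factors, 47 were tested, with 11 higher, 8 lower and a median change of -0.01, where 10.6% of all genes tested were higher and 8.96% lower. Without WT TAC 3 and KO TAC 1 there were 13 higher and 13 lower, and leaving out 1 library at a time gave 10 to 13 higher and 5 to 11 lower, with 5 lower without WT sham 1, KO sham 2, KO sham 3 or KO TAC 2 and 11 without KO TAC 1. The higher calls hold the stress markers of the ventricle. Nppa, the atrial natriuretic peptide, rose by 5.89 ± 0.65 (edgeR adjusted p = 9.86e-05), Nppb, its ventricular relative, by 3.92 ± 0.66 (0.00153), Acta1, skeletal alpha actin, by 3.42 ± 0.50 (0.000580), Cnn1, a smooth muscle calponin, by 4.07 ± 0.56 (0.000409), Fhl1, a LIM domain protein of muscle, by 2.04 ± 0.24 (0.000145) and Xirp2 by 1.53 ± 0.26 (0.00139). Within KO TAC, Nppa measured 98.4, 1632 and 673 CPM and Cnn1 2.62, 32.9 and 32.8, so that KO TAC 1 was low in both. The lower calls include Tnni3 (-1.22 ± 0.21), Atp2a2, which pumps calcium back into its store (-1.46 ± 0.27), its inhibitor Pln (-1.05 ± 0.19) and Ryr2, the calcium release channel (-0.65 ± 0.21), which were named after their values were seen. Tnni3, Atp2a2 and Pln kept their calls in all 21 other settings and Ryr2 in 6, being lost without any one of 9 libraries (all but KO sham 1 and KO TAC 1). In WT TAC 3 and KO TAC 1 Atp2a2 and Ryr2 were highest and Pln lowest of their TAC groups. Removing both had to enlarge the falls of Atp2a2 and Ryr2 and shrink that of Pln, so the counts without both do not support the list. The 3 cardiomyocyte markers called lower are all among these targets. Among the higher targets, Cnn1, Tagln and Des are also markers of smooth muscle and pericytes. The 8 markers of that list summed to 1748 to 2313 CPM in sham and 1961 to 5051 in TAC. Des alone gave 885 to 1192 CPM of this in sham and 1115 to 4184 in TAC. Of the 8, these 3 targets were the only higher calls and 1 marker was lower. Abcc9, another of them, had 208 to 371 CPM in sham and 45.1 to 169 in TAC. The part of these cells was not tested.

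**Figure D5:**
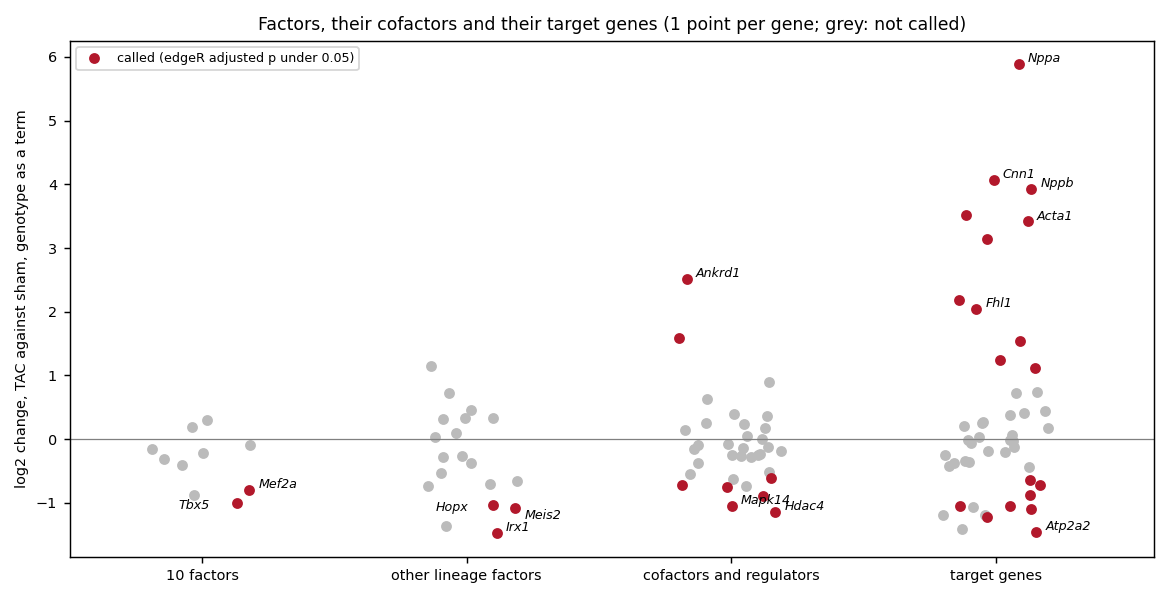
Log2 change with TAC against sham over both genotypes (y axis; edgeR fit with genotype as a term) for each tested gene of the 10 factors and of the 3 lists (x axis), with called genes in red and the others in grey. The factors run from -1.01 to 0.30, while the targets run from -1.46 to 5.89 with calls on both sides.

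Read side by side, the targets called higher had changes of 1.12 or more on the log2 scale, and none of the 10 factors had an estimate above 0.30. Those targets were picked for being higher, so this contrast was set by the choice. All 47 tested targets, 8 of them called lower, had a median change of -0.01, and the 10 factors one of -0.27. In WT alone the counts were 8 higher and 4 lower targets, where 3.88% and 3.04% of all genes were, and in KO alone 6 higher and 2 lower, where 3.32% and 1.37% were. Leaving out 1 library at a time moved the WT counts to 0 to 11 higher and 0 to 8 lower, with 0 and 0 without either WT sham library and the most without WT TAC 3. It moved the KO counts to 3 to 9 higher and 0 to 3 lower, with 3 higher without any one of the KO sham libraries and 9 without KO TAC 1. Between genotypes and in the interaction edgeR, DESeq2 and limma-voom each called 0 targets, 0 cofactors and 0 other lineage factors. At an unadjusted p under 0.05 with edgeR, 4 targets stood in KO against WT after sham, 1 target and 2 cofactors after TAC, and 5 targets in the interaction. The shares of all genes tested there were 1.27%, 6.36% and 2.97%.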

How the data were processed

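RNA from the ventricular myocardium of 11 mice, 1 library each, was sequenced. The authors deposited raw counts per Ensembl gene, and per the submitters' processing notes STAR 2.5.1, featureCounts and DESeq2 with build GRCm38 were used; the strand setting, the annotation and the handling of multiply aligned reads are not given in the sources used here. The deposited counts were checked to be whole numbers. All columns were used (0 left out). Symbols, exon lengths and positions came from GENCODE M21 on GRCm38, and 512 rows without a symbol held 0.0198% of counts. Groups follow the genotype and treatment labels, and the genotype label WT of 1 sham sample was read as Lmnb2 WT. The labels do not say more about how the mice relate, so p-values measure the spread between these libraries. Numbers in the titles do not overlap between TAC and sham, so any batch that goes with them cannot be told apart from surgery.

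Tests used edgeR 4.0.16 under R 4.3.3: filterByExpr (14619 genes kept), TMM scaling, and glmQLFit with glmQLFTest on 4 group means over all 11 libraries (7 residual degrees of freedom). TAC against sham over both genotypes used surgery and genotype as additive terms. Tests were 2-sided, with Benjamini-Hochberg adjustment over all genes tested and a threshold of 0.05. The standard error printed with a log2 change is approximate: the change divided by the square root of its F value. The steps were tested on simulated counts. Levels are TMM-scaled CPM, or that value per kilobase of merged exons, and counts of matched promoter motifs come from RefSeq windows. The members and the lists of lineage factors, cofactors, targets and cell markers were chosen with earlier results of these data known. All 10 members are described; of each list up to 6 called genes per comparison are named by smallest p, or the smallest p where none was called. The text gives the genes this picks for TAC against sham over both genotypes. Myl4, Tagln, Des, Tnni3, Atp2a2, Pln, Ryr2, Hdac7 and Hdac9 fall outside it there and were named after their values were seen. Alternatives were DESeq2 1.42.0, limma-voom (limma 3.58.1), other scalings, no filter on low counts, fewer libraries, the last letter of the title (M or F) as a covariate, and the share of ribosomal protein counts as a covariate. In F are KO sham 2, WT TAC 1 and KO TAC 3. The scaling by TMM over genes other than ribosomal protein and mitochondrially encoded ones was added after seeing the data.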

Additional observations from a re-analysis of the deposited data

How the results depend on the processing

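Counts of members called, log2 changes, family ratios and group levels were recomputed under up to 22 other settings, and no called change turned its direction. Motif matches, MEF2 shares, marker sums and non-overlap were not. With raw counts in place of counts per kilobase, 14 of the 20 group log2 ratios were scored as moved and 6 as the same. Mef2a to Mef2d ran from 0.540 to 1.59 per kilobase and from 1.32 to 3.90 in raw counts, so order within a family depends on exon length. With library totals, 13 of the 40 group mean levels moved by their SD or more and 27 did not. The count of members called between genotypes and in the interaction was 0 in all settings. In WT the count of 0 became 1 without the filter on low counts (Tbx5), 1 with DESeq2 (Mef2a) and 3 without WT TAC 3 and KO TAC 1 (Mef2a, Mef2d, Tbx5), and leaving out 1 library at a time gave 0 to 1. In KO the count of 0 became 1 with DESeq2 (Mef2a), 2 with the ribosomal protein share as a term (Mef2a lower, Tbx20 higher) and 2 without WT TAC 3 and KO TAC 1 (Mef2a, Mef2d), and leaving out 1 library gave 0 to 1. Over both genotypes the count of 2 became 0 with library totals, 0 with library totals without mitochondrially encoded genes and 4 without WT TAC 3 and KO TAC 1 (Mef2a, Mef2c, Mef2d, Tbx5), and leaving out 1 library gave 1 to 3. With the ribosomal protein share as a term it stayed at 2 with other genes, Mef2a lower and Tbx20 higher. WT TAC 3 and KO TAC 1 have the highest Mef2a, Mef2c and Mef2d levels of their groups, so their removal had to enlarge those falls. WT TAC 3 also has the highest Tbx5 level of WT TAC, so its removal had to enlarge the fall of Tbx5 in WT. The calls gained in this way do not support the members. Mef2a kept its call in 19 of 21 settings, Tbx5 in 13 and Mef2d passed in 7; the cause of these shifts was not tested beyond the settings named. Counts over all genes moved by more than 1.5 times as follows. TAC against sham in WT called 1011 genes, and 2243 without the filter, 2197 with DESeq2, 475 from these groups alone, 608 with the title letter, 630 with library totals without mitochondrially encoded genes, 4373 without WT TAC 3 and KO TAC 1, and 30 to 2666 without 1 library. In KO it called 687, and 1331 without the filter, 1499 with DESeq2, 1381 with library totals, 2295 with the ribosomal protein share, 2117 without both TAC libraries, and 226 to 996 without 1 library. Over both genotypes it called 2855, 5436 without both TAC libraries, and 1672 to 3870 without 1 library. In the genotype comparisons after sham and after TAC and in the interaction, where edgeR called 0 genes, it called 20, 206 and 80 without the filter, DESeq2 3, 6 and 2, and edgeR without both TAC libraries 2, 14 and 1, with 4 after sham from these groups alone. No paired analysis was possible because the titles carry no replicate numbers that groups share, and the numbers used here only name libraries in accession order. The lowest raw count of a member in any library was 76 (Tbx5).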
